A study of Rattus norvegicus with 15 samples.

Results

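The genes described here encode the enzyme families that modify foreign chemicals and reactive metabolites: cytochromes P450 (Cyp), aldehyde dehydrogenases (Aldh), aldo-keto reductases (Akr), carboxylesterases (Ces), glutathione S-transferases (Gst), their membrane-bound relatives (Mgst) and UDP-glycosyltransferases (Ugt). They were chosen by symbol, for these 7 family names, with a count of 10 or more in at least 3 of 12 libraries. Of 161 symbols that matched, 22 were left out by the count rule, and 139 of 26276 genes in the table remained. All 139 passed the filter on low counts used for testing. Of them 99 reached a count of 10 in a library of all 4 groups, 24 in 3 groups, 12 in 2 groups and 4 in 1 group. Those 4 passed the rule through that group alone, among them Cyp2b1 (iCM) and Akr1b10 (aCM). The rule reads letter case, so 9 symbols written in capitals, such as GSTA1 and CYP51A1, were not taken.

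Enzymes of this kind act in steps. In the first, cytochromes P450 and flavin monooxygenases add oxygen and carboxylesterases cut ester bonds. Aldehyde dehydrogenases and aldo-keto reductases oxidise or reduce the carbonyl groups that result, while transferases join glutathione, glucuronic acid or sulfate to the product for export. Many are best known from liver, but the families also hold enzymes with set tasks in heart and vessel cells, such as retinoic acid synthesis and breakdown, steroid turnover, fatty acid hydroxylation and amino acid catabolism.

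RNA was sequenced from rat cells of the Wistar strain in 4 groups of 3 libraries. The iCM are beating colonies of induced cardiomyocytes derived from cardiac stem cells, the aCM are cardiomyocytes freshly isolated from hearts of 12 week old rats, the nCM are cardiomyocytes freshly isolated at postnatal day 1 to 2, and the CSC are undifferentiated clonogenic cardiac stem cells, a biological triplicate of a single clone. A further 3 libraries come from 3 other stem cell clones (cCSC1 to cCSC3), and the first CSC library also serves as clone 4. The labels do not say which animals or cultures the iCM, aCM and nCM libraries came from, so a p-value here sets a difference against library-to-library spread, and that spread may be technical. The aCM and nCM were fresh isolates while iCM and CSC were grown as colonies and clones, so cell type and any effect of culture cannot be told apart between them. In a mixed sample, fewer cells of a type and less RNA per cell cannot be told apart.

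Library totals were 44220172 to 48514794 counts in iCM, 20683016 to 25959913 in aCM, 35791996 to 43307505 in nCM and 35400392 to 48493094 in CSC. A count of 3 is worth 0.0618 to 0.145 on the counts-per-million scale (CPM), counting error only. The 7 cardiomyocyte markers summed to 3900 to 4601 CPM in iCM, 83700 to 110729 CPM in aCM, 1378 to 2714 CPM in nCM and 4.70 to 45.2 CPM in CSC. Markers of other cells were present too. The 8 endothelial markers summed to 2077 to 2426 CPM in iCM, 1412 to 2109 in aCM, 2980 to 3581 in nCM and 59.0 to 77.5 in CSC. The 7 erythroid markers summed to 17816 to 21342 CPM in iCM, 80.2 to 107.9 in aCM, 27146 to 39999 in nCM and 23.5 to 176.2 in CSC. The leukocyte markers summed to 122.1 to 136.7 CPM in iCM, 103.6 to 153.7 in aCM, 267.2 to 408.2 in nCM and 27.9 to 47.4 in CSC. Those of smooth muscle and pericytes summed to 1121 to 1657, 1729 to 2377, 1082 to 1171 and 249.5 to 284.5 CPM in iCM, aCM, nCM and CSC. Those of Schwann and neural cells summed to no more than 105.6 CPM in any library. The 8 hepatocyte markers summed to 6.59 to 7.70 CPM in iCM, 26.1 to 32.1 in aCM, 8.33 to 10.9 in nCM and 6.72 to 10.9 in CSC. They were highest in aCM through transthyretin (Ttr), which averaged 0.192 ± 0.14, 22.1 ± 2.97, 0.236 ± 0.102 and 0.0759 ± 0.0479 CPM in iCM, aCM, nCM and CSC, while albumin (Alb) averaged 0.176 ± 0.0419, 0.161 ± 0.0933, 0.259 ± 0.0201 and 0.159 ± 0.0702 CPM in the same groups (SD, n = 3 each). Of the 7 hepatocyte markers tested, Ttr rose and Apoa1 fell in aCM against nCM, and their part in the results was not tested.

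Promoter sequences are shown for 5 members on which the results turn: Gstp1, Akr1b8 and Cyp1b1, whose highest libraries were all CSC, and the neighbouring genes Ces1d and Ces1e, whose highest libraries were all iCM. They are the 250 bases before the gene start in RefSeq, build GRCr8, given 5′ to 3′ on the strand of the gene, at chr1:210769706-210769955 (minus strand), chr4:63964171-63964420 (plus), chr6:21094315-21094564 (plus), chr19:30046244-30046493 (plus) and chr19:30005923-30006172 (plus). Capitals mark matches, on either strand, to TGACNNNGC, the core of the antioxidant response element bound by Nrf2, and to GCGTG, the core of the element bound by the aryl hydrocarbon receptor.
Gstp1: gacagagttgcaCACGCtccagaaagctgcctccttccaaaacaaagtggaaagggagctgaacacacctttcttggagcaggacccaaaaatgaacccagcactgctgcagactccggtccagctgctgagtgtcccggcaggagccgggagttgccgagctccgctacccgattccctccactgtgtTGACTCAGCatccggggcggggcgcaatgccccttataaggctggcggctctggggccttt
Akr1b8: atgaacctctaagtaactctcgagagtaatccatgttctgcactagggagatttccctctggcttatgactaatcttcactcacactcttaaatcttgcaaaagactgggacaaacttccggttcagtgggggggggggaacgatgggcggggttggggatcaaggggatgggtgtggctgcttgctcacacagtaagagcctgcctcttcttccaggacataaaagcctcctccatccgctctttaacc
Cyp1b1: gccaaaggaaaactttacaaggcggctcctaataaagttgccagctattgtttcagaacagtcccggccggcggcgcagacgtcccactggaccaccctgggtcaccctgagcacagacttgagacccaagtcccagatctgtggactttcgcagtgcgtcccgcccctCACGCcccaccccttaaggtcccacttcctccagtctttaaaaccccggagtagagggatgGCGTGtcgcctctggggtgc
Ces1d: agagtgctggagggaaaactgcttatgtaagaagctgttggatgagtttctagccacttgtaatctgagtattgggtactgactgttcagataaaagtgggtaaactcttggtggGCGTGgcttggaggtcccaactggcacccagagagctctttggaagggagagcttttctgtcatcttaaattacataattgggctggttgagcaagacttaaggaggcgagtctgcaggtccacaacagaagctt
Ces1e: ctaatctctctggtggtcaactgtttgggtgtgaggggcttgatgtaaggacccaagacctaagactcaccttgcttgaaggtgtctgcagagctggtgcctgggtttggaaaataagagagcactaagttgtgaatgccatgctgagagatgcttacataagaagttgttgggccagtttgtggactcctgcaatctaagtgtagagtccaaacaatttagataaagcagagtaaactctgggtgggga
Gstp1 held TGACNNNGC once, starting 61 bases before the gene start, and GCGTG once on the other strand, at 238 bases. Cyp1b1 held GCGTG at 81 bases on the other strand and at 20 bases on the gene's own, and Ces1d held it at 135 bases, while these 250 bases of Akr1b8 and Ces1e held neither. In RefSeq 114 of 139 members had a promoter by symbol, some more than 1. TGACNNNGC occurred in 12 of 117 member promoters (10.3%) and in 3373 of 33469 promoters of all genes (10.1%). GCGTG occurred in 35 of 117 member promoters (29.9%) and in 8666 of 33469 (25.9%). A match in these letters is a description of the sequence and not of binding.

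The members as a whole took 0.466% to 0.522% of the counts of the iCM libraries, 0.311% to 0.352% in aCM, 0.187% to 0.199% in nCM and 0.402% to 0.570% in CSC. The share was thus lowest in the 3 nCM libraries, and the iCM and CSC libraries overlapped. In iCM, 29.1% of the members' CPM came from Ces1d, a share that also depends on transcript length. At the other end 48 of 139 members stayed under 1 CPM in all 4 group means. Among them were 19 of 35 in the families CYP1 to CYP3, the main drug oxidising P450s of liver. They also held 8 of 14 carboxylesterases and 5 of 7 UDP-glycosyltransferases.

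Between iCM and CSC, 64 members rose and 25 fell in iCM (adjusted p under 0.05, edgeR's quasi-likelihood test with Benjamini-Hochberg adjustment over 17242 genes). That is 64.0% of the members, against 66.0% of all genes tested (34.8% higher and 31.2% lower), so the share called was near the background. The median log2 fold change was 0.68 over the members and 0.08 over all tested genes. Between aCM and nCM, 38 members rose and 25 fell in aCM, 45.3% of the members against 62.7% of all genes (30.8% higher and 31.9% lower). With total count scaling, which moved the all-gene median by -0.34, the split was 33 and 32. With TMM scaling and a change of at least 2-fold also required, 32 rose and 14 fell of 139 members. Of all 17242 genes 3249 rose and 3046 fell by that rule, or 36.5% called. Between iCM and nCM, 37 rose and 12 fell in iCM, 35.3% of the members against 31.4% of all genes (18.3% higher and 13.1% lower). With the 2-fold requirement 29 rose and 3 fell of 139 members. Of all 17242 genes 1006 rose and 860 fell by that rule, or 10.8% called. Between iCM and aCM, 35 rose and 40 fell in iCM, 54.0% of the members against 63.1% of all genes (33.0% higher and 30.1% lower). With total count scaling this split became 46 and 26, or 63.9% of the calls higher in place of 46.7%. Between nCM and CSC, 56 rose and 34 fell in nCM, 64.7% of the members against 72.1% of all genes (36.7% higher and 35.4% lower). Between aCM and CSC, 70 rose and 32 fell in aCM, 73.4% of the members against 78.0% of all genes (43.2% higher and 34.8% lower). The median log2 fold change over the members and over all tested genes was 0.37 and -0.01 for aCM against nCM, 0.09 and -0.02 for iCM against nCM, -0.22 and 0.00 for iCM against aCM, 0.54 and 0.09 for nCM against CSC, and 1.02 and 0.29 for aCM against CSC. Of the 91 members with a group mean of 1 CPM or more, 84.6%, 62.6%, 48.4%, 64.8%, 81.3% and 83.5% were called in the 6 comparisons as ordered above. Of the 48 members under 1 CPM in every group mean it was 25%, 12.5%, 10.4%, 33.3%, 33.3% and 54.2%. The shares over all genes were not split by level. These comparisons share libraries and are not independent of each other.

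By family, the counts for iCM against CSC were as follows, beside 34.8% of all genes higher and 31.2% lower, and no difference between families was tested. Of 35 P450 genes of families CYP1 to CYP3, 16 rose and 4 fell, of 12 CYP4 genes 7 rose and 0 fell, and of the 16 P450 genes of other families, which act mostly on sterols, steroids, retinoids and vitamin D, 8 rose and 5 fell. Of 4 Aldh1a genes 3 rose and 0 fell, while the 15 other aldehyde dehydrogenases split into 6 that rose and 6 that fell, a tie that became 7 and 6 with total count scaling and 6 and 7 with RLE scaling or the authors' library factors. Of 16 aldo-keto reductases 6 rose and 5 fell, of 14 carboxylesterases 4 rose and 1 fell, and of 7 UDP-glycosyltransferases 2 rose and 0 fell. Against nCM, where 18.3% of all genes were higher and 13.1% lower, iCM had 7 of the 15 other aldehyde dehydrogenases higher and 0 lower. For CYP1 to CYP3 the counts were 5 higher and 4 lower, or 25.7% called, near the 31.4% of all genes.

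**Figure D1:**
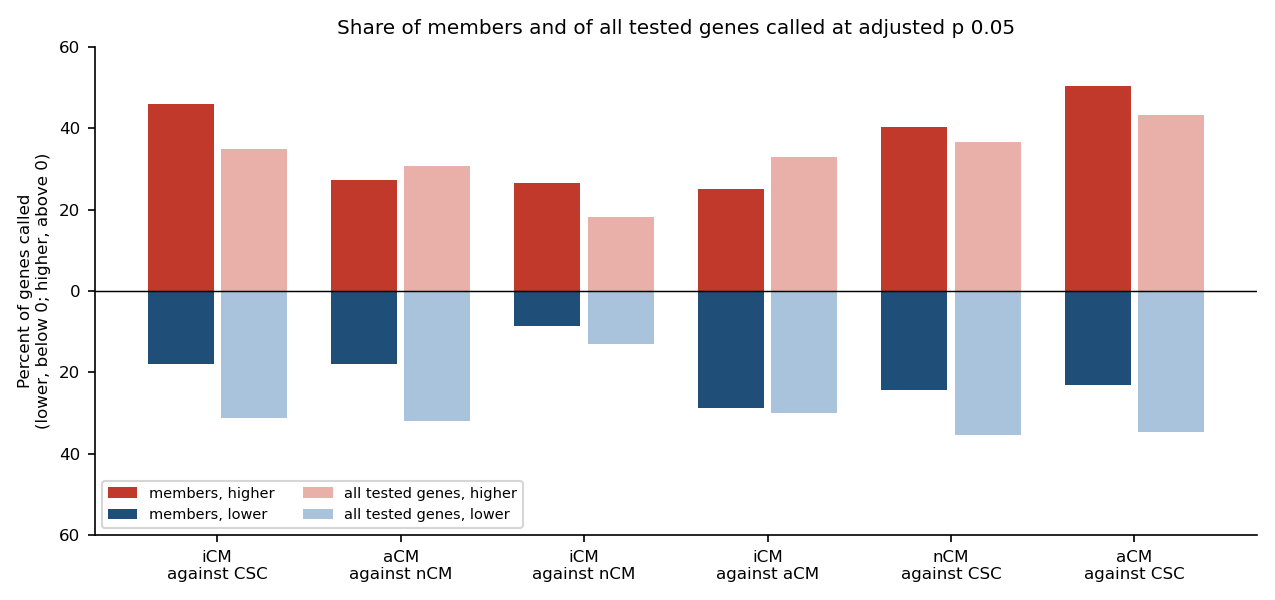
Percent of genes called at an adjusted p under 0.05 (edgeR) in each of 6 comparisons, with genes higher in the group named first above 0 and genes lower in it below 0. Dark bars are the 139 members and pale bars all 17242 genes tested. Of the members 45.3% were called in aCM against nCM, against 62.7% of all genes. Among the 91 members with a group mean of 1 CPM or more it was 62.6%.

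The clearest member of iCM was Ces1d (ENSRNOG00000015519), a carboxylesterase of liver and fat that also hydrolyses stored triacylglycerol. It stood at 1577, 1321 and 1195 CPM in the iCM libraries, 94.7, 70.8 and 140.2 in aCM, 0.0642, 0.397 and 0.142 in nCM and 1.39, 0.768 and 2.66 in CSC. All 4 groups were apart, with iCM highest and nCM at 3, 15 and 6 counts. Ces1d rose in iCM against CSC (log2 fold change 9.77 ± 0.50, adjusted p = 1.57e-09), against aCM (3.74 ± 0.37) and against nCM (12.78 ± 0.59), and it rose in aCM against nCM (9.03 ± 0.54). Without nCM replicate 2, which holds most of the nCM counts, the values against nCM were 13.67 for iCM and 9.91 for aCM. Its neighbour Ces1e, another liver carboxylesterase, stood at 12.1, 9.73 and 8.87 CPM in iCM, 0.362, 0.582 and 0.443 in aCM, 0.15, 0.132 and 0.26 in nCM and 0.311, 0.192 and 0.414 in CSC. No iCM library overlapped any other, and Ces1e rose in iCM by 5.08 ± 0.30 against CSC, 4.44 ± 0.30 against aCM and 5.79 ± 0.32 against nCM. These 2 genes are near copies, and the sources used here do not say how reads were shared between such genes.

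Among the 14 carboxylesterases tested, 6 rose and 0 fell in iCM against nCM, with a median of 0.55. Over all genes 18.3% rose and 13.1% fell there, with a median of -0.02. The adipocyte markers moved the same way in this comparison, since 5 of 7 rose in iCM against nCM and 0 fell (median 3.28). In aCM against nCM, 5 of 14 carboxylesterases rose and 0 fell (median 0.67), where 30.8% of all genes rose and 31.9% fell. There 3 of 7 adipocyte markers rose and 2 fell (median 0.33). Adiponectin (Adipoq) averaged 6.63 ± 1.78 CPM in iCM and 0.197 ± 0.0552 CPM in nCM (SD, n = 3 each). Perilipin 1 (Plin1) averaged 2.53 ± 0.471 CPM in iCM and 0.149 ± 0.0564 CPM in nCM. The summed level of the list was 957.8 to 1203 CPM in iCM, 597.7 to 1202 in aCM, 1098 to 2127 in nCM and 130.1 to 398.5 in CSC. It rests mostly on Fabp4, which endothelium also expresses. No marker of the list was at 0 in a whole group, and the part of these cells in the carboxylesterase result was not tested. Of the hepatocyte markers 0 rose and 1 fell in iCM against nCM, and they summed to 6.59 to 7.70 CPM in iCM and 8.33 to 10.9 CPM in nCM.

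The glutathione S-transferases, which join glutathione to electrophiles, numbered 17 cytosolic and kappa members. Of these 11 rose and 3 fell in iCM against CSC, where 34.8% of all genes rose and 31.2% fell. Against nCM 8 rose and 0 fell in iCM, where 18.3% of all genes rose and 13.1% fell. Gsta1 (ENSRNOG00000013484), the alpha class enzyme abundant in liver, stood at 324, 337 and 317 CPM in iCM, 15, 15.8 and 24.2 in aCM, 2.91, 3.04 and 2.77 in nCM and 17.5, 13 and 18.6 in CSC. The iCM libraries were far above all others, aCM overlapped CSC, and nCM was lowest. Gsta1 rose in iCM against CSC (log2 fold change 4.32 ± 0.19, adjusted p = 3.81e-10), aCM (4.16 ± 0.19) and nCM (6.81 ± 0.22), and the related Gsta3 rose against nCM by 2.07 ± 0.42 at 0.959 to 0.99 CPM in iCM and 0.171 to 0.284 CPM in nCM. The alpha genes are near copies too, so which copy each row counts is uncertain.

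Gstm2, a mu class enzyme of muscle and heart, had a different pattern, with 225, 205 and 199.5 CPM in iCM, 162, 210.3 and 175 in aCM, 15.1, 15.3 and 13.4 in nCM and 19.8, 14.3 and 17.3 in CSC. The iCM and aCM libraries overlapped each other and lay above all nCM and CSC libraries. The rise was 3.85 ± 0.15 in iCM and 3.64 ± 0.15 in aCM against nCM, and 3.62 ± 0.15 in iCM and 3.41 ± 0.14 in aCM against CSC. Gstm7 rose likewise in iCM (2.20 ± 0.21) and in aCM (3.52 ± 0.22) against nCM, and Gstz1, which also acts in tyrosine breakdown as maleylacetoacetate isomerase, by 1.14 ± 0.15 and 1.04 ± 0.15 in the same comparisons. Gstm1 was above all other libraries in iCM, at 67.6, 58.5 and 56.3 CPM, against 25 to 34.2 CPM in aCM, 23.5 to 31.3 CPM in nCM and 31 to 34 CPM in CSC, and rose by 1.15 ± 0.14 against nCM. The mu genes lie in a cluster of near copies, with the same doubt about shared reads.

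In all, 11 members (7.91%) had every iCM library above all 9 others, against 3.82% of all genes tested. Beside Ces1d, Ces1e, Gsta1, Gsta3 and Gstm1 these were the P450 genes Cyp1a1, Cyp2b1, Cyp2d4, Cyp2d5, Cyp2u1 and Cyp26b1, named here because they are the whole set. Cyp2u1 passed in none of the iCM comparisons, at 0.37, 0.35 and 0.38 against CSC, nCM and aCM (edgeR adjusted p = 0.0933, 0.157 and 0.0901). The near copies Ces1d and Ces1e, and Gsta1 and Gsta3, are each counted in the set, with the doubt about shared reads given above. Most were at low levels. Cyp1a1, the classic aryl hydrocarbon receptor target, stood at 3.45, 2.82 and 3.04 CPM in iCM, 0.984, 1.21 and 1.22 in aCM, 1.56, 1.69 and 1.84 in nCM and 0.766, 1.07 and 1.06 in CSC, and rose in iCM against CSC (1.68 ± 0.20) and nCM (0.87 ± 0.19). Cyp2d4, a P450 of brain and other organs, rose in iCM against CSC by 4.51 ± 0.35 and against nCM by 1.66 ± 0.29, at 7.25 to 12.1 CPM in iCM, 2.58 to 3.6 CPM in nCM and 0.148 to 0.576 CPM in CSC. Cyp2b1 counts were 64, 42 and 36 in iCM, 1, 0 and 0 in aCM, 0, 0 and 6 in nCM and 4, 0 and 6 in CSC. Cyp2b1 passed the count rule for members through its iCM libraries alone, so a higher level there is partly built into its selection. Its fitted rise in iCM against nCM (4.26 ± 0.79) became 8.19 without nCM replicate 3, and that against aCM (5.60 ± 1.15) became 8.27 without aCM replicate 1, so neither is an exact fold. Cyp2d5, with counts of 27, 24 and 33 in iCM, 0, 1 and 0 in aCM, 7, 14 and 12 in nCM and 16, 17 and 3 in CSC, was higher in iCM and lower in nearly empty aCM libraries in the same way (4.84 ± 0.87 for iCM against aCM, 7.51 without aCM replicate 2, and -3.74 ± 1.00 for aCM against nCM, -6.40 without it).

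**Figure D2:**
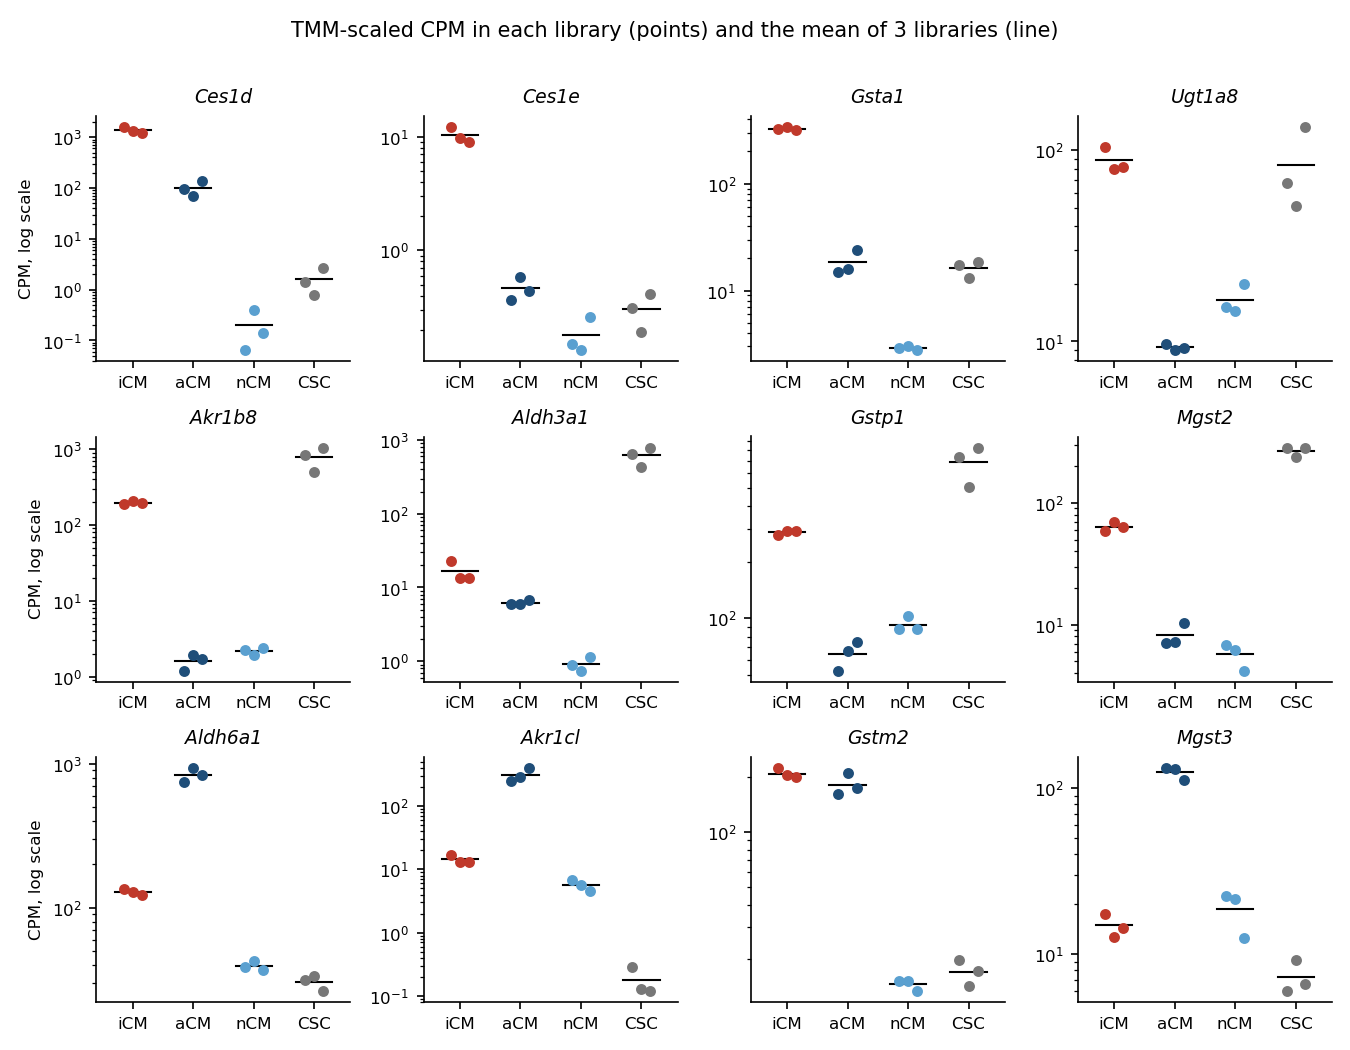
Level of 12 members in each of the 12 libraries in TMM-scaled CPM on log axes, with points for libraries and a line for the mean of 3 libraries, for iCM, aCM, nCM and CSC from left to right. The top row holds members high in iCM, such as Ces1d at 1364 ± 194 CPM; the middle row members highest in CSC, such as Akr1b8 at 799 ± 277 CPM; the bottom row members high in aCM, such as Aldh6a1 at 837 ± 94.2 CPM (SD, n = 3 each).

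A second group, at a share near that of all genes, was high in CSC and iCM and low in the heart isolates. In 13 members (9.35%, against 8.49% of all genes tested) every iCM and CSC library lay above every aCM and nCM library: Akr1b8, Akr1c13, Aldh3a1, Aldh3a2, Aldh7a1, Ces1a, both rows of Ces2c, Gstm5, Gstp1, Mgst1, Mgst2 and Ugt1a8. Akr1b8 (ENSRNOG00000009734), a reductase of aldehydes such as those from lipid peroxidation, stood at 187, 209 and 195 CPM in iCM, 1.19, 1.93 and 1.72 in aCM, 2.25, 1.93 and 2.41 in nCM and 849, 499.7 and 1047 in CSC. It fell in iCM against CSC (log2 fold change -2.02 ± 0.22, adjusted p = 2.66e-06) and rose in iCM against nCM (6.48 ± 0.28) and aCM (6.92 ± 0.29). Against CSC its value was -8.50 ± 0.30 in nCM and -8.94 ± 0.31 in aCM, so the iCM level lay between the stem cells and the heart isolates.

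Aldh3a1, which oxidises aromatic and lipid-derived aldehydes and is abundant in cornea, stood at 22.9, 13.5 and 13.6 CPM in iCM, 5.9, 6 and 6.7 in aCM, 0.878, 0.741 and 1.13 in nCM and 647, 436 and 789.7 in CSC. The 4 groups did not overlap. It fell in iCM against CSC (-5.23 ± 0.27), in aCM (-6.65 ± 0.29) and in nCM (-9.40 ± 0.34), and rose in iCM against nCM (4.17 ± 0.29). Gstp1, the pi class transferase known from placenta and dividing cells, stood at 279, 296 and 295 CPM in iCM, 52.4, 66.6 and 74.6 in aCM, 87.3, 103 and 88.3 in nCM and 731, 505 and 824 in CSC, again without overlap between groups. Its value was -1.24 ± 0.17 for iCM against CSC and 1.65 ± 0.18 for iCM against nCM.

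The membrane-bound Mgst2, which with glutathione also makes leukotriene C4, stood at 58.8, 69.7 and 62.8 CPM in iCM, 7.04, 7.21 and 10.4 in aCM, 6.83, 6.19 and 4.18 in nCM and 284, 240.0 and 282 in CSC. It fell in iCM against CSC (-2.07 ± 0.18) and rose in iCM against nCM (3.47 ± 0.19) and aCM (2.96 ± 0.19). Ugt1a8, one of the transcripts that share their last exons in the Ugt1a locus, stood at 104, 80.0 and 81.8 CPM in iCM, 9.73, 9 and 9.25 in aCM, 15.2, 14.5 and 19.9 in nCM and 67.4, 51 and 132 in CSC, where iCM and CSC overlapped and both lay above the heart isolates. Aldh18a1, which makes proline, and the aldehyde reductase Akr1a1 were also highest in CSC. Aldh18a1 fell by 1.93 ± 0.17 on the log2 scale in iCM against CSC and by 2.14 ± 0.18 in aCM against nCM, and Akr1a1 by 0.68 ± 0.12 and 0.77 ± 0.12 in the same comparisons. The 6 proliferation markers moved with Aldh18a1 and Akr1a1: all 6 fell in iCM against CSC (median -1.62) and 5 fell in aCM against nCM (median -4.35). In iCM against nCM, where Mgst2 rose, 0 of these markers rose and 1 fell (median -0.37). The part of proliferation in these results was not tested.

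Several P450 genes were highest in CSC. Cyp19a1, the aromatase that makes estrogens, stood at 0.319, 0.214 and 0.245 CPM in iCM and 19.6, 13 and 21.1 CPM in CSC, and fell in iCM (log2 fold change -6.10 ± 0.27, adjusted p = 4.18e-10). Cyp3a62, of the steroid and drug oxidising CYP3A group, stood at 0.553, 0.66 and 0.49 CPM in iCM and 10.2, 33.9 and 55.3 CPM in CSC (-5.86 ± 0.56). Cyp2ac1 fell in iCM (log2 fold change -4.93 ± 0.30) to 0.252 to 0.367 CPM, against 6.99 to 10.3 CPM in CSC. Cyp1b1, a P450 of mesenchymal cells that oxidises estrogens and retinoids, was lower in iCM than in CSC (-1.98 ± 0.15), at 9.38, 8.25 and 7.75 CPM in iCM, 6.52, 6.04 and 7.65 in aCM, 14.4, 15 and 13.6 in nCM and 26.9, 34.1 and 39.1 in CSC. The aCM and nCM levels of Cyp19a1, Cyp3a62 and Cyp2ac1 were between 0.111 and 1.16 CPM.

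Aldh1a1, Aldh1a2 and Aldh1a3 were under 1 CPM in every CSC library and present in the other 3 groups. They oxidise retinaldehyde to retinoic acid, and the Cyp26 enzymes break it down. Aldh1a2 (ENSRNOG00000016042), the main enzyme of the embryonic heart and the epicardium, stood at 46.7, 36.4 and 41.2 CPM in iCM, 12.3, 9.94 and 19.1 in aCM, 55.6, 45.9 and 36.7 in nCM and 0.407, 0.448 and 0.237 in CSC. The iCM and nCM libraries overlapped, aCM lay below both, and CSC was lowest. Aldh1a2 rose in iCM against CSC (log2 fold change 6.78 ± 0.31, adjusted p = 6.08e-10) and fell in aCM against nCM (log2 fold change -1.74 ± 0.23, adjusted p = 1.64e-05).

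Aldh1a3 was also lowest in CSC and next lowest in aCM, with nCM just above iCM, at 11.7, 10.8 and 11.9 CPM in iCM, 6.52, 3.89 and 6.09 in aCM, 13.4, 12.7 and 13.3 in nCM and 0.335, 0.256 and 0.0887 in CSC (5.60 ± 0.30 for iCM against CSC and -1.26 ± 0.23 for aCM against nCM). Aldh1a1 was highest in aCM, with 13, 11 and 10.9 CPM in iCM, 77.1, 55.3 and 114 in aCM, 28.7, 29.2 and 25.7 in nCM and 0.67, 0.853 and 0.237 in CSC. Its 4 groups did not overlap, and it rose in aCM against nCM (1.56 ± 0.26) but fell in iCM against nCM (-1.27 ± 0.26). Cyp26b1 stood at 33.8, 35.5 and 34.7 CPM in iCM, 13.6, 11.3 and 7.2 in aCM, 13.3, 21.9 and 20.2 in nCM and 4.09, 2.45 and 5.18 in CSC, and rose in iCM against CSC (3.16 ± 0.29) and aCM (1.69 ± 0.27). Its rise in iCM against nCM (0.91 ± 0.26, adjusted p = 0.0183) no longer passed without iCM replicate 2 or 3 or nCM replicate 1, where the largest adjusted p was 0.0666.

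**Figure D3:**
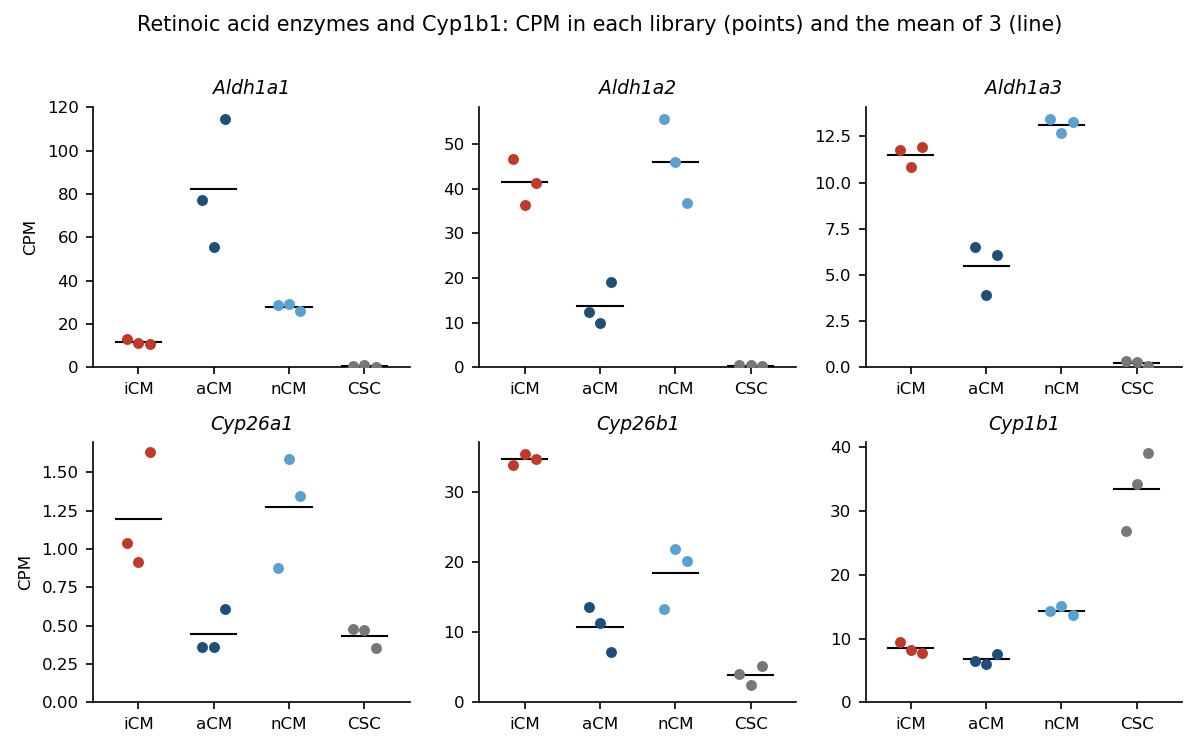
Level of the retinoic acid enzymes Aldh1a1, Aldh1a2, Aldh1a3, Cyp26a1 and Cyp26b1 and of Cyp1b1 in each library in TMM-scaled CPM on linear axes from 0, with points for libraries and a line for the mean of 3 libraries. The 3 Aldh1a genes lie near 0 in CSC, Aldh1a1 is highest in aCM at 82.3 ± 29.9 CPM (SD, n = 3), and Cyp1b1 is highest in CSC.

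Retinoid handling genes outside these families were counted too: of 18 tested, 14 rose and 2 fell in iCM against CSC, where 34.8% of all genes rose and 31.2% fell. In aCM against nCM 3 rose and 8 fell, or 61.1% called, near the 62.7% of all genes. The receptor gene Rarb averaged 13.1 ± 1.03, 23.1 ± 0.881, 21.8 ± 1.44 and 0.419 ± 0.163 CPM in iCM, aCM, nCM and CSC (SD, n = 3 each). Among the exceptions Dhrs9, a retinol oxidising dehydrogenase, fell in iCM against CSC (-3.34 ± 0.29) and averaged 13.4 ± 0.484 CPM in iCM and 136 ± 47.1 CPM in CSC. Markers of several cell types moved too. Of the endothelial, leukocyte and erythroid markers, 8 of 8, 7 of 8 and 6 of 7 rose in iCM against CSC, and 0, 0 and 1 fell. In aCM against nCM 7, 8 and 7 of them fell and 0 rose. All 8 fibroblast markers rose in iCM against CSC and 7 of 8 fell in aCM against nCM, with sums of 20378 to 22766 CPM in iCM, 2828 to 5456 in aCM, 19810 to 24782 in nCM and 5598 to 6261 in CSC. Of 7 epicardial markers 5 rose and 1 fell in iCM against CSC, while 6 rose and 1 fell in aCM against nCM. Their sums were 165.9 to 196.7 CPM in iCM, 122.3 to 234.7 in aCM, 96.9 to 120.2 in nCM and 1377 to 1936 in CSC, where Krt8 leads. No marker of any of these lists was at 0 in a whole group, and the part of these cells in the retinoid result was not tested.

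Another group was highest in aCM. Here 24 members (17.3%, against 20.9% of all genes tested) had every aCM library above all 9 others, a share under that of all genes. Among them is Akr1b10, which passed the count rule through aCM alone. Aldh6a1 (ENSRNOG00000011419), the mitochondrial methylmalonate semialdehyde dehydrogenase of valine and thymine breakdown, stood at 135, 129 and 122 CPM in iCM, 741, 929.6 and 839.5 in aCM, 38.5, 42.6 and 37.2 in nCM and 31.7, 33.6 and 26.3 in CSC. It rose in aCM against nCM (log2 fold change 4.41 ± 0.14, adjusted p = 9.89e-11) and in iCM against nCM (1.70 ± 0.13) and CSC (2.07 ± 0.13), and iCM stayed below aCM (-2.70 ± 0.13). Aldh2, the mitochondrial enzyme that clears acetaldehyde and lipid aldehydes, stood at 265, 266 and 247 CPM in iCM, 359.7, 343 and 319.7 in aCM, 56.8, 45.9 and 37.4 in nCM and 143, 121 and 120.4 in CSC, with a rise of 2.87 ± 0.15 in aCM and 2.47 ± 0.15 in iCM against nCM.

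Akr1cl (ENSRNOG00000021735), an aldo-keto reductase of the AKR1C group, stood at 17.1, 13 and 13.1 CPM in iCM, 253, 288 and 399 in aCM, 6.74, 5.69 and 4.59 in nCM and 0.287, 0.128 and 0.118 in CSC, and no group overlapped another. It rose in aCM by 5.79 ± 0.24 against nCM and 10.74 ± 0.33 against CSC. It rose in iCM by 1.34 ± 0.21 against nCM and 6.30 ± 0.31 against CSC, where the CSC counts were only 12, 6 and 4. Mgst3, a microsomal transferase and peroxidase, stood at 17.5, 12.8 and 14.5 CPM in iCM, 132, 132 and 113 in aCM, 22.4, 21.5 and 12.6 in nCM and 5.98, 9.26 and 6.65 in CSC. It rose in aCM against nCM (2.74 ± 0.22) and was lower in iCM than in aCM (-3.07 ± 0.23), while iCM overlapped nCM. Aldh5a1, which oxidises succinate semialdehyde, rose in aCM against nCM by 3.61 ± 0.30 and was lower in iCM than in aCM (-2.78 ± 0.29). Gstk1, the transferase of mitochondria and peroxisomes, rose in aCM against nCM by 2.70 ± 0.44 and averaged 9.36 ± 0.591 CPM in iCM, 45.6 ± 6.2 in aCM and 7.01 ± 1.05 in nCM (SD, n = 3 each).

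Among P450s of the adult cells, Cyp27a1, the mitochondrial sterol 27-hydroxylase, stood at 21.5, 16.2 and 17.3 CPM in iCM, 74.5, 69.5 and 63 in aCM, 4.71, 4.55 and 4.52 in nCM and 5.05, 2.28 and 1.39 in CSC. It rose in aCM (3.91 ± 0.32) and in iCM (2.00 ± 0.30) against nCM. Cyp11a1, which starts steroid synthesis from cholesterol, rose in aCM against nCM by 4.30 ± 0.60, and its iCM libraries differed widely, at 1.15, 10.3 and 5.57 CPM in iCM, 18.5, 15.9 and 11.2 in aCM, 0.771, 0.688 and 0.851 in nCM and 0.263, 0.448 and 0.532 in CSC. Its value for iCM against aCM (-1.42 ± 0.51) was -0.93 when iCM replicate 1 was left out and -2.17 when iCM replicate 2 was, and no longer passed without iCM replicate 3 or aCM replicate 1 or 2 (adjusted p = 0.0681, 0.0899 and 0.0646). Cyp2j4 and Cyp4f6, of the fatty acid oxidising P450s, rose in aCM against nCM by 1.16 ± 0.21 and 1.96 ± 0.51, and the ethanol oxidising Cyp2e1 by 2.53 ± 0.31. All 3 were lower in iCM than in aCM, with log2 fold changes of -1.62, -1.73 and -1.31. Of the 12 CYP4 genes 0 rose and 7 fell in iCM against aCM, with a median of -0.67, against 33.0% higher and 30.1% lower over all genes. With total count scaling 2 rose and 3 fell, with a median of -0.40.

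Akr1b10 rose in aCM against nCM (4.55 ± 0.59) and CSC (6.27 ± 0.72), and was lower in iCM than in aCM (-5.45 ± 0.64). It passed the count rule for members through its aCM libraries alone, so a higher level there is partly built into its selection. Its counts were 2, 5 and 4 in iCM, 40, 146 and 26 in aCM, 8, 6 and 4 in nCM and 3, 2 and 0 in CSC, so these folds rest on few counts and on aCM replicate 2, without which the 3 values were 3.58, 5.32 and -4.48. The 7 cardiomyocyte markers moved with the adult group, since all 7 rose in aCM against nCM (median 4.15) and all 7 were lower in iCM than in aCM (median -3.22). The part of cardiomyocyte content in these results was not tested. In 18 members (12.9%, against 5.89% of all genes tested) every iCM and aCM library lay above every nCM and CSC library, among them Ces1d, Gstm2, Gstm7, Gstz1, Aldh2, Aldh6a1, Akr1cl and Cyp27a1.

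Other orders over the groups were counted as well. In 40 members (28.8%, against 25.9% of all genes tested) every CSC library was below all 9 others, and in 26 (18.7%, against 24.3%) every CSC library was above them. In 13 (9.35%, against 19.1%) every aCM library was lowest, in 9 (6.47%, against 9.39%) every nCM library, and in 2 (1.44%, against 1.21%) every iCM library. Every aCM and nCM library lay above every iCM and CSC library in 11 members (7.91%, against 6.26%).

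Members highest in nCM were few: in 7 (5.04%, against 8.93% of all genes tested) every nCM library was above all 9 others. Akr1c14, the 3-alpha-hydroxysteroid dehydrogenase that reduces steroids and prostaglandins, stood at 37.9, 35.2 and 33.9 CPM in iCM, 34.4, 29.9 and 53.7 in aCM, 56.8, 84.2 and 57.7 in nCM and 0.431, 0.384 and 0.266 in CSC. It rose in iCM (6.59 ± 0.30) and nCM (7.49 ± 0.30) against CSC and was lower in iCM than in nCM (-0.89 ± 0.20). Cyp7b1, the oxysterol 7-alpha-hydroxylase, rose in nCM against CSC by 5.18 ± 0.30, at 5.65 to 7.14 CPM in iCM, 6.11 to 8.97 in aCM, 11.5 to 11.9 in nCM and 0.118 to 0.427 in CSC. Akr1c3, another steroid and prostaglandin reductase, was lower in aCM than in nCM (-2.11 ± 0.31), as was Akr1c13 (-1.97 ± 0.63). The Akr1c13 value no longer passed without aCM replicate 1 or 2 (adjusted p = 0.0627 and 0.0734) and was -3.33 without aCM replicate 3. Of the 12 members lower in iCM than in nCM, the steepest 5 were Aldh1a1, Cyp2b15 (-1.24 ± 0.32), Cyp39a1 (-1.02 ± 0.22), Cyp4f18 (-0.96 ± 0.24) and Cyp2s1 (-0.95 ± 0.25), the last 4 at 2.41 CPM or lower in every iCM and nCM library. Leaving out iCM replicate 2 cut that count of 12 to 6, and Cyp2s1 then no longer passed (adjusted p = 0.0706).

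**Figure D4:**
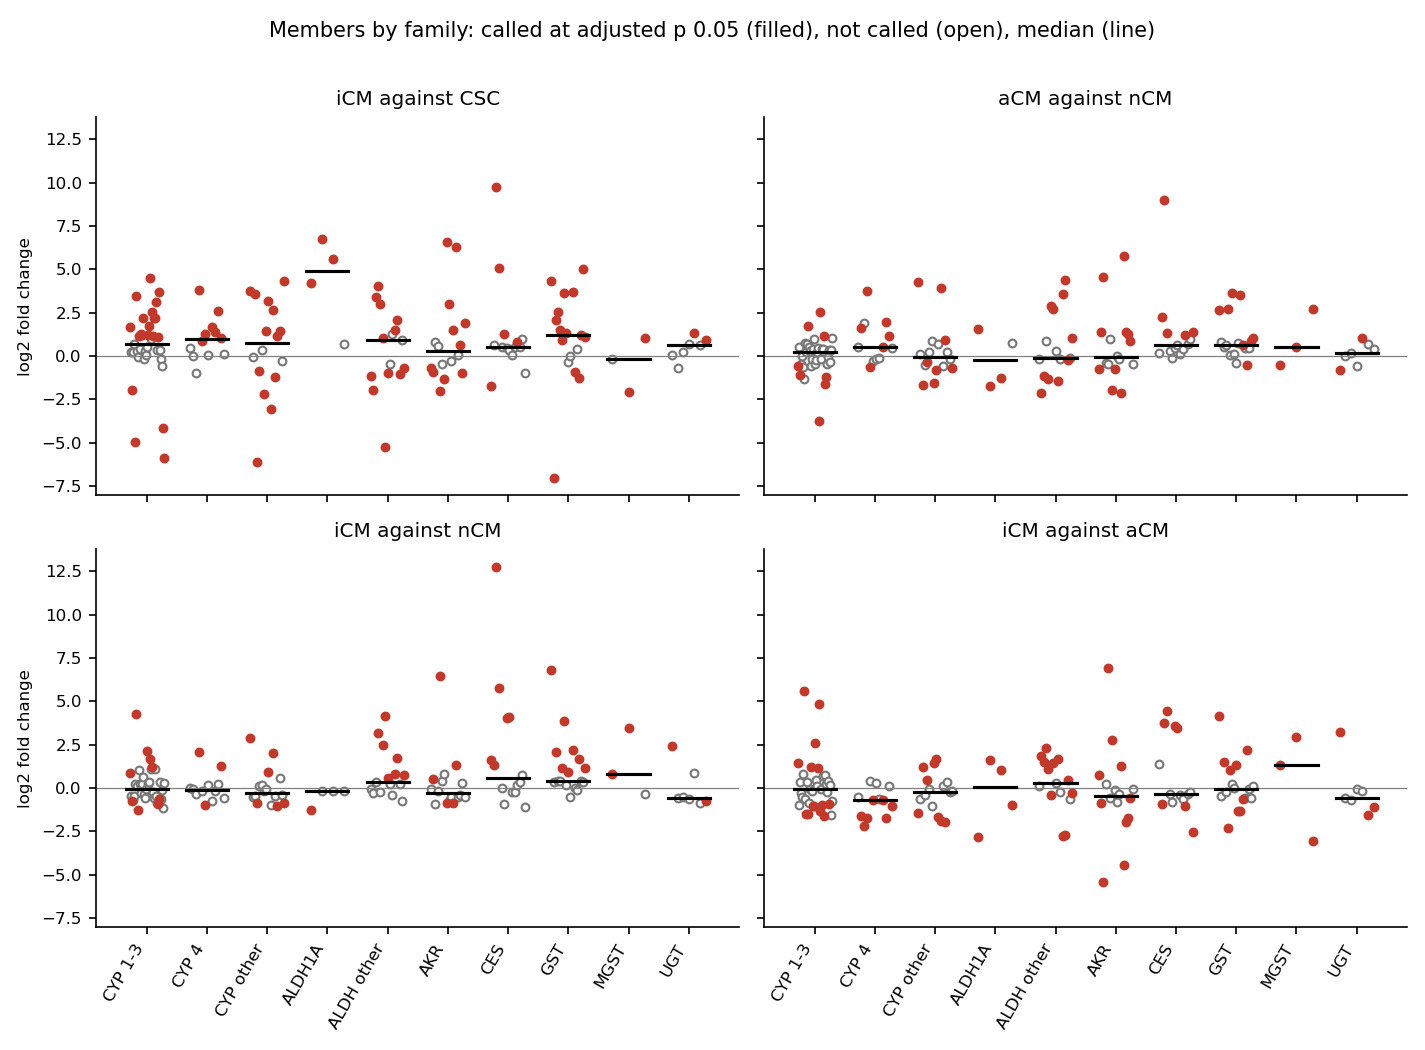
Log2 fold change of each of the 139 members, by family, for iCM against CSC, aCM against nCM, iCM against nCM and iCM against aCM. Filled points passed an adjusted p of 0.05 (edgeR), open points did not, and lines are family medians; Ces1d is the highest point for iCM against nCM at 12.78, and the Aldh1a median is 4.92 for iCM against CSC.

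A few members differed widely between libraries of the single CSC clone. Gsta2 stood at 0.214 to 0.277 CPM in iCM, 0.0554 to 0.492 in aCM, 0.106 to 0.257 in nCM, and 2.03, 0.277 and 94.8 CPM in the CSC libraries. It was called lower in iCM (-7.03 ± 1.63) and nCM (-7.40 ± 1.70) than in CSC, but those values rest on CSC replicate 3, without which they were -2.21 and -2.59. Cyp4b1, which hydroxylates fatty acids and is known from lung, stood at 18.8, 15.5 and 17.2 CPM in iCM, 70.8, 61.2 and 106 in aCM, 25.4, 21.6 and 17.2 in nCM and 87.4, 10.7 and 1.04 in CSC. It passed neither for iCM (log2 fold change -0.95 ± 0.87, adjusted p = 0.355) nor for nCM (log2 fold change -0.63 ± 0.86, adjusted p = 0.526) against CSC. Without CSC replicate 1 both turned round and passed, at 1.51 (adjusted p = 0.0364) and 1.83 (adjusted p = 0.0139). Without CSC replicate 3 the iCM value passed in the other direction, at -1.52 (adjusted p = 0.0285), so the direction depends on the library left out. Cyp21a1, the adrenal steroid 21-hydroxylase, chosen after its values were seen, stood at 13.1 to 15.1 CPM in iCM and 3.88, 2.82 and 26.6 CPM in the CSC libraries.

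The stem cell clones were set side by side without a test, since there is 1 library per clone. Of the members 119 were in the clone table, whose columns for cCSC1 and cCSC2 are a signal on the scale of counts and for cCSC3 and clone 4 estimated counts, here given as CPM of the column totals. These genes were chosen after their values were seen. Akr1b8 stood at 720.1, 505.0 and 1426 CPM in cCSC1, cCSC2 and cCSC3, and 876.6 in clone 4. Aldh3a1 stood at 141.3, 88.0 and 876.9 CPM in cCSC1, cCSC2 and cCSC3, and 668.2 in clone 4. The low columns, cCSC1 and cCSC2, are those that hold a signal and not estimated counts, so clone and measure cannot be told apart. Cyp1b1 was highest in cCSC3, at 11.3, 17.4 and 132.0 CPM in cCSC1, cCSC2 and cCSC3, and 27.8 in clone 4. In cCSC2 alone Cyp7b1 reached 53.5 CPM, against 0.566 in cCSC1, 0.219 in cCSC3 and 0.395 in clone 4, and Aldh1l1, Aldh1l2 and Akr1c14 reached 18.8, 17.5 and 17.2 CPM there, with the other 3 columns between 0.239 and 1.13. Ces1d was at 0.901, 0.981 and 0.319 CPM in cCSC1, cCSC2 and cCSC3, and 1.43 in clone 4, so no clone column approached its iCM level.

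Partner enzymes of the same steps, from lists of genes outside the 7 families, were also counted. Of 26 rows for genes of oxidation and hydrolysis, 20 rose and 1 fell in aCM against nCM (median 1.08, against -0.01 over all genes), 15 rose and 1 fell in iCM against nCM, and 13 rose and 8 fell in iCM against CSC. All genes had 30.8%, 18.3% and 34.8% higher and 31.9%, 13.1% and 31.2% lower in these comparisons. Fmo2, a flavin monooxygenase best known from lung, averaged 641 ± 35.6 CPM in iCM, 2984 ± 522 in aCM, 233 ± 119 in nCM and 143 ± 23.3 in CSC (SD, n = 3 each). Aldehyde oxidase (Aox1) rose in iCM against nCM by 5.54 ± 0.39, at 185 ± 28.9 CPM in iCM and 3.98 ± 0.657 CPM in nCM, and xanthine dehydrogenase (Xdh) by 4.04 ± 0.25. The quinone reductase Nqo1 averaged 222 ± 5.64 CPM in iCM, 20.9 ± 1.55 in aCM, 11.3 ± 2.26 in nCM and 429 ± 94.5 in CSC, the same order over the groups as for Aldh3a1.

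Of 28 rows for conjugation partners tested, 15 rose and 3 fell in iCM against nCM, where 18.3% of all genes rose and 13.1% fell. Against aCM 17 rose and 2 fell in iCM, where 33.0% of all genes rose and 30.1% fell. Against CSC 9 rose and 11 fell, or 71.4% called, near the 66.0% of all genes. The sulfotransferase Sult1b1 averaged 56.5 ± 12.9 CPM in iCM, 0.207 ± 0.179 in aCM, 0.165 ± 0.041 in nCM and 61.2 ± 30.4 in CSC, so that iCM and CSC stood far above both heart isolates. Gclc, which makes the first step of glutathione synthesis, rose in iCM against nCM by 1.61 ± 0.13, and glutathione reductase (Gsr) by 1.05 ± 0.12. Against CSC, Gsr fell in iCM (-1.51 ± 0.12). Of 24 rows for sensors and regulators, 11 rose and 6 fell in iCM against CSC, and 10 rose and 7 fell in aCM against nCM. That is 70.8% called in each, near the 66.0% and 62.7% of all genes. Nfe2l2, which encodes Nrf2, averaged 212 ± 9.37 CPM in iCM, 144 ± 27 in aCM, 258 ± 20.8 in nCM and 549 ± 115 in CSC. The aryl hydrocarbon receptor gene Ahr averaged 40.4 ± 4.89, 34.2 ± 10.2, 58.4 ± 6.79 and 97 ± 21.9 CPM in iCM, aCM, nCM and CSC, and the lipid sensor gene Ppara rose in aCM against nCM by 4.91 ± 0.25. Counts of transcripts say nothing of the activity of these regulators.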

How the data were processed

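Ribosomal RNA-depleted TruSeq libraries were made from 1 µg total RNA, per the labels' protocols. The deposited table gives estimated counts per Ensembl gene for 12 libraries and log2 normalized values, which by their values are divided by 1 factor per library and centred on each gene's median by the authors; only those library factors were used, as an alternative. The deposited clone table holds estimated counts for cCSC3 and clone 4 and, for cCSC1 and cCSC2, a signal whose making is not stated by the authors. DESeq is named in the submitters' processing notes. Which aligner, counter and genome build were used is not stated in the labels or headers (not given in the sources used here), so the sharing of reads between near copies is unknown.

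Estimated counts were rounded to whole numbers, filtered with edgeR's filterByExpr and scaled by TMM, and CPM use the TMM library sizes. Group means over 12 libraries were fitted in edgeR 4.0.16 (limma 3.58.1, R 4.3.3) and compared by the quasi-likelihood test with Benjamini-Hochberg adjustment over 17242 genes at 0.05. Summaries used numpy 2.4.6 and pandas 2.3.3 under Python 3.11.15, and figures matplotlib 3.10.9. The fit was tested on simulated counts in which few genes changed, and in iCM alone. Many genes differ between the groups here, so that test cannot speak for the scaling or the split into higher and lower. Members and lists were chosen with earlier results of these data known. Named genes were the 5 largest changes in each direction per comparison among called members without overlap, plus a fixed list of 53, of which 46 were members. Some genes shown, such as Ugt1a8, Cyp21a1 and Cyp26a1, came from neither source. Alternatives were 3 other scalings, other filters, a 2-fold rule, DESeq2 1.42.0, the 2 groups alone, a replicate block and leaving out each library. Deviations of same-numbered libraries correlated at -0.199 to 0.0737, so the numbers were not taken as pairs. No 2 replicates agreed within sampling noise (lowest median chi-square over genes 1.72, against 0.455 by chance).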

Additional observations from a re-analysis of the deposited data

How the results depend on the processing

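Counts of members called, higher and lower changed by more than 1.5 times under 3 settings. Requiring at least a 2-fold change left 14 members lower in aCM against nCM (25 without it), and 32 called (49) and 3 lower (12) in iCM against nCM. Total count scaling left 26 members lower in iCM against aCM (40 with TMM). Leaving out iCM replicate 2 left 6 lower in iCM against nCM. The cause was not tested, except that the 2-fold rule removes small changes by construction. With each library left out in turn, the members called numbered 87 to 90 for iCM against CSC (62 to 65 higher, 25 to 26 lower), 53 to 61 for aCM against nCM (35 to 38, 17 to 25), 39 to 46 for iCM against nCM (32 to 36, 6 to 11), 64 to 77 for iCM against aCM (35 to 39, 29 to 38), 84 to 87 for nCM against CSC (48 to 53, 33 to 36) and 89 to 98 for aCM against CSC (59 to 68, 29 to 31). With the replicate number as a block, the members called were 89, 61, 49, 75, 90 and 99 in the same order of comparisons. DESeq2 called 85, 63, 50, 70, 84 and 88.

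Of 3357 values of single members under the alternatives, 3255 kept direction and call, 99 kept direction but no longer passed, 1 newly passed and 2 reversed: Cyp4b1 without CSC replicate 1, at 1.51 for iCM and 1.83 for nCM against CSC. Without CSC replicate 3 the same values were -1.52, which is the 1 that newly passed, and -1.20. Scaling moved the median log2 fold change of all genes by up to -0.34 (total counts, aCM against nCM) and 0.28 (total counts, iCM against aCM). Depth limits members with few counts, such as Cyp2b1 and Cyp2d5, whose folds are not exact.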
